A study of Mus musculus with 8 samples.

Results

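Gdf3, the activin subunit genes and the receptors and inhibitors they share were followed in white fat of the epididymal depot, which lies beside the testis in mice. The set was named by symbol: the ligand genes Gdf3, Inhba and Inhbb, the inhibitor genes Fst and Fstl3, the type I receptor genes Acvr1b and Acvr1c, and the type II receptor genes Acvr2a and Acvr2b. Of these 9 symbols, 8 matched a row among the 31854 rows of the count table, each on a single row, and all 8 entered the test of 15667 rows. Fstl3 was not analysed here. All mice ate a high-fat diet. Replicates 1, 2, 3 and 5 of the wild type (WT) gave 4 libraries, and replicates 2, 3, 4 and 6 of the S273A knock-in of PPAR-gamma gave the other 4. In S273A, serine 273 of this receptor, the main switch of fat cell formation, is replaced by alanine, which cannot be phosphorylated. The allele was not restricted to a cell type by any label, and the labels state neither age nor the number of altered copies. Nor do they say that each library was a separate animal, so the p-values reflect how far these libraries scatter, and part of that scatter may be technical.

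The codon of serine 273, the residue named by the S273A label, is shown in its reference form. It is the last codon of exon 5 of 7 in the Pparg transcript of 505 codons, and capitals mark the serine codon at 115463283 to 115463285. The sequence is from GENCODE release M21.
Pparg, chr6:115463257-115463285 (GRCm38, plus strand): tcttgacaggaaagacaacggacaaaTCA

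Activins are dimers of inhibin beta subunits, encoded by Inhba and Inhbb among others, and belong with GDF3 to the TGF-beta family of secreted ligands. Activins bind a type II receptor (Acvr2a or Acvr2b), which then phosphorylates a type I receptor, ALK4 (Acvr1b) or ALK7 (Acvr1c), and this in turn activates Smad2 and Smad3. GDF3 and activin B signal through ALK7, a receptor abundant in white fat cells, where it restrains the breakdown of stored fat, and GDF3 has been described as a product of adipose macrophages in obesity. Follistatin (Fst) and its relative Fstl3 bind activins and keep them from their receptors.

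Total counts ran from 14880239 to 18194889 per library. Adipocyte markers were plentiful in every library, with summed levels of 7922 to 11666 CPM in WT and 8830 to 10973 CPM in S273A for 10 genes (CPM are counts scaled to library size after TMM correction). Markers of epididymis and testis, tissue that lies against this depot, summed to 0.0593 to 0.117 CPM in WT and 0.0562 to 1.23 CPM in S273A over the 8 genes with a row. The upper end in S273A was mostly Adam7, which held 20 counts in total and 0 in 7 of the 8 libraries. Levels of RNA from whole tissue are mixtures over cell types, so fewer cells of a type and less RNA per cell cannot be told apart.

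Gdf3 was the member with the largest difference between genotypes, and it was 4.40-fold lower in S273A. Gdf3 (uc009dpm.1; chromosome 6, 122605403 to 122610087, minus strand, GRCm38) was at 18.3, 17.9, 15.8 and 17.8 CPM in WT replicates 1, 2, 3 and 5. In S273A replicates 2, 3, 4 and 6 it was at 2.45, 2.47, 7.41 and 3.51 CPM. The highest S273A library was lower than the lowest WT library, and the spread was uneven: the coefficient of variation was 6.43% in WT and 59.4% in S273A, where replicate 4 was the highest. The genotypes separated in this direction in 83 of the 15667 tested rows, 0.53% of them, and Gdf3 was the only 1 of the 8 members that did so. The log2 fold change was -2.14 (SE 0.30), with an edgeR quasi-likelihood adjusted p of 0.646, and 0 of 15667 rows, 0% of them, passed an adjusted p under 0.05 in that fit, with 229 rows, 1.46%, at an unadjusted p under 0.05. Gdf3 ranked 1 by p among all rows in that fit (edgeR unadjusted p 4.12e-05). Pparg is on chromosome 6 as well, at 115360951 to 115490399. The labels do not say whether other sequence of that chromosome differs between the genotypes. The codon and such sequence cannot be told apart here.

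**Figure D1:**
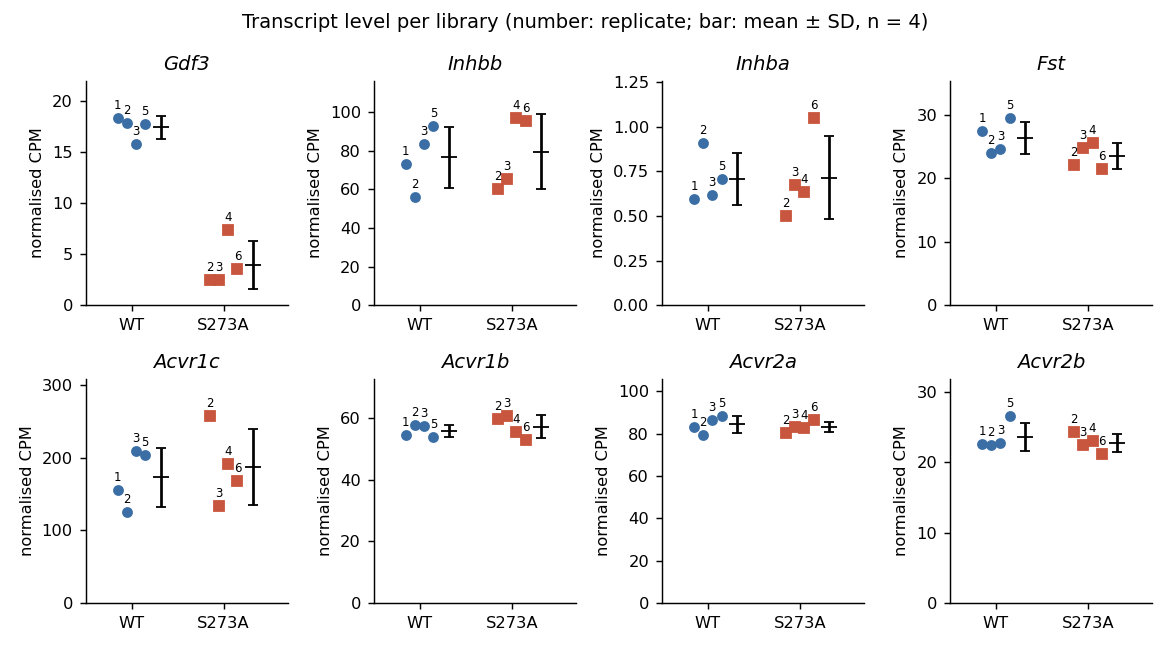
Normalised CPM (vertical axes, from 0) of the 8 genes in each library, WT as blue circles and S273A as red squares, with the replicate number beside each point and mean ± SD (n = 4) as black bars. Gdf3 is the only panel in which the genotypes do not overlap, and S273A replicate 4, at 7.41 CPM, is the highest S273A library there.

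Whether Gdf3 passed the threshold turned on the method and on S273A replicate 4. DESeq2 called it (log2 fold change -2.14, adjusted p 4.44e-08), as the only gene it called among 22694 rows, 0.00441% of them. limma-voom gave -2.30 with an adjusted p of 0.0835 and called 0 of 15667 rows, 0% of them, with 223 rows at an unadjusted p under 0.05. Without S273A replicate 4 the edgeR estimate was -2.64 (adjusted p 0.000383). Over 21 alternative settings the Gdf3 estimate ran from -2.77 to -1.96, always lower in S273A, and its adjusted p from 4.44e-08 to 1.00. The fits without 1 library could not have turned that sign, because the genotypes do not overlap for Gdf3. The -2.77 came from a replicate block, an estimate that rests on replicates 2 and 3 alone and so leaves out S273A replicate 4.

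**Figure D2:**
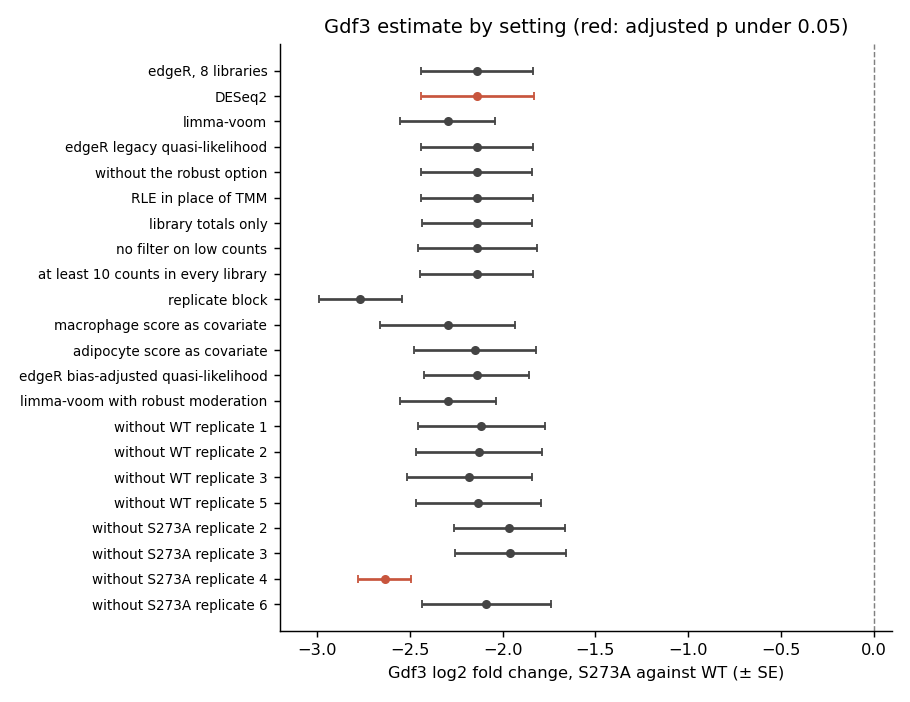
Log2 fold change of Gdf3 in S273A against WT (horizontal axis, ± SE) in the edgeR fit of 8 libraries and under 21 other settings (rows). Every estimate lies between -2.77 and -1.96, and the 2 in red, DESeq2 and the fit without S273A replicate 4, passed an adjusted p under 0.05.

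Macrophage markers were compared beside Gdf3, since macrophages are a described source of it. Their summed level was 4922 to 5880 CPM in WT and 4559 to 5307 CPM in S273A, so the genotypes overlapped. Of 13 tested markers, 11 had negative and 2 positive estimates, and the median log2 fold change was -0.12 against 0.0015 over all tested rows, and 0 were called by edgeR (0 at an unadjusted p under 0.05). The smallest p-values were those of Csf1r, through which macrophages receive their growth factor, averaging 763 ± 58.7 CPM in WT and 701 ± 49.2 in S273A, and of the mannose receptor gene Mrc1, at 668 ± 50.1 and 601 ± 86.0 CPM (SD, n = 4 each). Fcgr1, an antibody receptor gene, was at 55.2 ± 7.14 and 50.1 ± 6.13 CPM. Lipid-associated macrophage markers, genes of the fat-laden macrophages of obese tissue, had 9 negative and 1 positive estimates among 10 tested, with a median of -0.08 and 0 called. In a fit with the macrophage score as a covariate, Gdf3 had a log2 fold change of -2.30 (SE 0.36, edgeR unadjusted p 0.000245). Gdf3 did not pass after adjustment in that fit, where 0 of 15667 rows were called and 386 were at an unadjusted p under 0.05.

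Gdf3 is also known as a gene of early embryonic and germ cells, so markers of those cells were read in the same libraries. Pou5f1, Dppa5a and Zfp42 held 0 counts in all 8 libraries, Utf1 held 9 counts in total, and Nanog 26. The 8 markers together were at 2.05 to 2.67 CPM in WT and 2.59 to 3.85 CPM in S273A, with the highest value in S273A replicate 4. Most of that sum was Dppa3, with means of 1.10 (WT) and 1.60 CPM (S273A) and a log2 fold change of 0.53, and the germ cell helicase gene Ddx4, at 0.963 and 0.894 CPM. Neither was called, and Dppa3 lies next to Gdf3 on the chromosome.

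Inhbb, which encodes the subunit of activin B, varied widely within each genotype and did not separate them. Inhbb (uc007cir.1; chromosome 1, 119415465 to 119422248, minus strand) was at 73.0, 56.1, 83.6 and 92.9 CPM in WT replicates 1, 2, 3 and 5. It was at 60.0, 65.5, 96.6 and 95.4 CPM in S273A replicates 2, 3, 4 and 6. Both genotypes held low and high libraries, with 2 of the S273A libraries above every WT library and none below the lowest. The S273A estimate was 0.06 on the log2 scale, with an SE of 0.19 and a 95% confidence interval of -0.37 to 0.48 (edgeR adjusted p 1.00), which on the fold scale runs from 0.772 to 1.40.

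Inhba, the gene of the activin A subunit, was close to the limit of what these libraries can measure. Inhba (uc007pnw.1; chromosome 13, 16011851 to 16031621, plus strand) had 10, 16, 9 and 12 counts in WT and 9, 12, 11 and 17 in S273A, in the same order of replicates. Mean levels were 0.706 ± 0.144 CPM (WT) and 0.714 ± 0.234 CPM (S273A; SD, n = 4 each). Its log2 fold change was -0.0012 with a 95% confidence interval of -0.63 to 0.62, which on the fold scale runs from 0.648 to 1.54. These are the folds that the interval allows, not a limit of detection.

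Fst encodes follistatin, which traps activins outside the cell. Fst (uc007rxn.2; chromosome 13, 114452290 to 114458951, minus strand) was at 27.5, 24.0, 24.6 and 29.5 CPM in WT replicates 1, 2, 3 and 5. It was at 22.1, 24.9, 25.6 and 21.4 CPM in S273A replicates 2, 3, 4 and 6. The lowest values were S273A libraries 2 and 6 and the highest were WT libraries 1 and 5, while of the 4 libraries between, both S273A libraries lay above both WT libraries. The log2 fold change of -0.17, with an SE of 0.09 and an interval of -0.37 to 0.03 at 95% confidence, had the second smallest p of the members, 0.0884 unadjusted and 1.00 adjusted in edgeR, and in an exact two-sided permutation test the p was 0.171. The estimate was -0.11 without WT replicate 5 (unadjusted p 0.240) and -0.052 with a replicate block (unadjusted p 0.742), both from edgeR. The estimate with the block rests on replicates 2 and 3 alone, the only numbers found in both genotypes. Fst shares 115 exon bases with Gm47040 on the opposite strand, and these libraries do not mark strand.

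Acvr1c encodes ALK7, and its transcript was the most uneven of the receptor genes between libraries of 1 genotype. Acvr1c (uc008jsp.2; chromosome 2, 58267453 to 58357895, minus strand) was at 155, 124, 210 and 203 CPM in WT replicates 1, 2, 3 and 5. It was at 257, 133, 191 and 167 CPM in S273A replicates 2, 3, 4 and 6. S273A replicate 2 was the highest and WT replicate 2 the lowest, and the genotypes overlapped. On the log2 scale the difference was 0.11, with an SE of 0.21 and a 95% confidence interval of -0.36 to 0.59 (edgeR adjusted p 1.00). It was -0.08 without S273A replicate 2 and -0.02 without WT replicate 2. The gene shares 168 exon bases with Gm13544 on the opposite strand.

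Acvr1b, the gene of ALK4, was steady. Acvr1b (uc007xsr.1; chromosome 15, 101174067 to 101213684, plus strand) was at 54.4, 57.7, 57.5 and 54.0 CPM in WT replicates 1, 2, 3 and 5, and at 59.9, 60.7, 55.5 and 53.0 CPM in S273A replicates 2, 3, 4 and 6. The highest and the lowest library were both S273A. The log2 fold change was 0.03 (SE 0.06), and its 95% confidence interval allowed folds of 0.935 to 1.12.

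The type II receptor genes did not separate the genotypes either. Acvr2a (uc008jpo.2; chromosome 2, 48814109 to 48903269, plus strand) was at 83.1, 79.5, 86.7 and 88.4 CPM in WT replicates 1, 2, 3 and 5, and at 80.3, 83.2, 82.5 and 86.3 CPM in S273A replicates 2, 3, 4 and 6. All S273A values lay within the WT range. Its log2 fold change was -0.02 (SE 0.05), with folds of 0.910 to 1.06 inside the 95% confidence interval, the narrowest of the 8 members. It shares 446 exon bases with Orc4, which is on the opposite strand.

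Acvr2b (uc009sax.2; chromosome 9, 119402118 to 119434995, plus strand) was at 22.6, 22.5, 22.8 and 26.6 CPM in WT replicates 1, 2, 3 and 5. It was at 24.4, 22.5, 23.0 and 21.2 CPM in S273A replicates 2, 3, 4 and 6. WT replicate 5 was above every other library, and the remaining values were intermixed. The log2 estimate was -0.05, its SE 0.08 and its 95% confidence interval -0.22 to 0.12, and it was 0.01 without WT replicate 5.

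**Figure D3:**
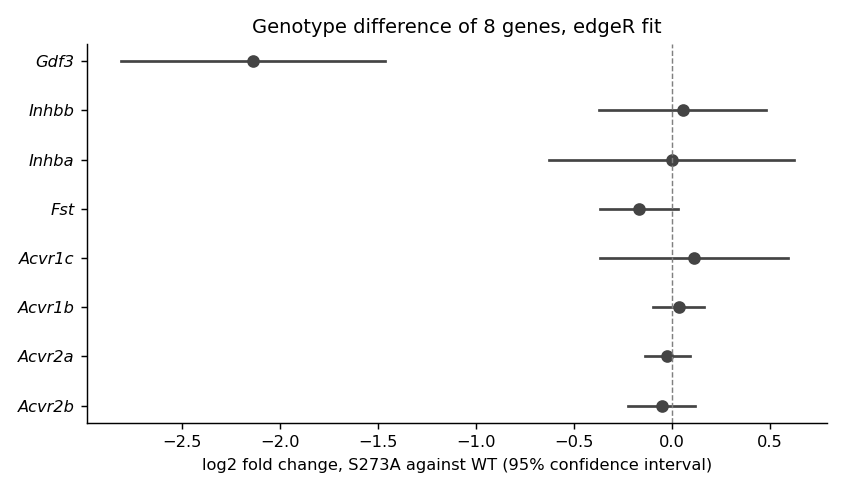
Log2 fold change of S273A against WT (horizontal axis) with its 95% confidence interval for each of the 8 genes (rows), from the edgeR fit. The Gdf3 interval, -2.81 to -1.46, lies below 0, while the other 7 intervals include 0.

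The members were compared with one another per length, as counts per kilobase of the table's feature length, scaled like the CPM (RPKM). Averaged over all 8 libraries, Inhbb was highest at 18.3 ± 3.86 RPKM, followed by Acvr1b at 17.3 ± 0.856, Acvr1c at 15.0 ± 3.67 and Acvr2a at 14.3 ± 0.533 (SD, n = 8). These 4 neighbours in the order each overlapped the next over the libraries, since Inhbb ran from 13.2 to 22.7 RPKM and Acvr1c from 10.4 to 21.4 RPKM. Acvr1b (16.2 to 18.5 RPKM) and Acvr2a (13.5 to 15.0 RPKM), which are not adjacent in the order, did not overlap. Fst came next at 8.72 ± 0.922 RPKM. With these lengths, Gdf3 was close to Fst in WT, at 8.27 ± 0.532 against 9.23 ± 0.891 RPKM, and close to Acvr2b in S273A, at 1.88 ± 1.11 against 2.14 ± 0.122 RPKM (SD, n = 4). Inhba was lowest, at 0.457 ± 0.116 RPKM, and only 5.97% of tested rows had a lower mean level, against 77.2% for Inhbb. The median over tested rows was 7.08 RPKM.

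**Figure D4:**
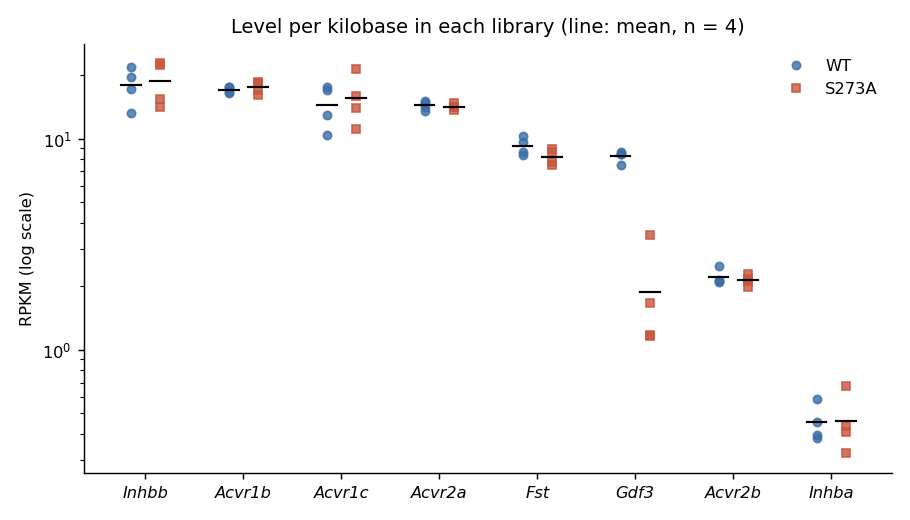
Level per kilobase (RPKM, log scale) of the 8 genes in each library, in order of the WT mean, with WT as blue circles, S273A as red squares and the mean of 4 libraries as a line. Gdf3 is at 8.27 RPKM in WT and 1.88 RPKM in S273A; its place beside Fst and Acvr2b depends on the feature lengths of the table.

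These levels depend on the feature length in the table, which for Acvr2b (10666 bases) and Inhba (1553 bases) is far from the merged exon length in GENCODE M21 (3928 and 6390 bases). The same counts were divided by the GENCODE lengths, and reads were not counted anew over those exons. The values that follow show how the order depends on the length and are not levels measured on GENCODE exons. With the GENCODE lengths, an alternative chosen after seeing the data, Acvr2b was at 5.91 RPKM, Fst at 5.43 and Inhba at 0.111, so that the order of Acvr2b and Fst turned. Acvr1c was then at 19.4 RPKM and Acvr1b at 12.8, a turned order as well. Gdf3 was at 7.20 RPKM in WT, above Fst at 5.75, and at 1.64 RPKM in S273A, well below Acvr2b at 5.80. Inhbb was at 18.3 RPKM with either length.

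Within each library, the share of Gdf3 among the ligand transcripts separated the genotypes, while the shares within the receptor pairs overlapped. Gdf3 made up 33.1, 38.1, 27.2 and 27.5% of the summed RPKM of Gdf3, Inhba and Inhbb in WT replicates 1, 2, 3 and 5, and 7.46, 6.90, 13.2 and 6.72% in S273A replicates 2, 3, 4 and 6. All S273A shares lay below all WT shares, 8.57% ± 3.10 against 31.5% ± 5.18 (SD, n = 4 each; exact two-sided permutation p = 0.0286, the smallest that 4 against 4 can give, and 0.114 adjusted over 4 ratios). This share holds the Gdf3 difference itself and is no separate observation of it. Acvr1c made up 45.4% ± 6.33 of the summed level of the type I pair in WT and 46.6% ± 6.85 in S273A (exact permutation p = 0.771, n = 4 each). Acvr2a made up 86.7% ± 0.675 of the type II pair in WT and 86.9% ± 0.984 in S273A (exact permutation p = 0.771, n = 4 each). The level of Inhbb over that of its inhibitor Fst was 1.94 ± 0.320 in WT and 2.28 ± 0.591 in S273A (exact permutation p = 0.400, n = 4 each), with the highest ratio in S273A replicate 6. These values rest on the table's lengths, and the GENCODE values that follow divide the same counts by other lengths. With the GENCODE lengths the ratio of Inhbb to Fst was 3.11 ± 0.513 in WT and 3.66 ± 0.948 in S273A, the share of Acvr1c 58.9% ± 6.28 and 60.1% ± 6.69, that of Acvr2a 71.2% ± 1.19 and 71.6% ± 1.76, and that of Gdf3 29.0% ± 5.12 and 7.67% ± 2.78 (SD, n = 4 each). Gdf3 again was the only 1 of the 4 without overlap.

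The members fell into steady and uneven genes. The SD of log2 CPM within a genotype was 0.06 for Acvr2a, 0.07 for Acvr1b and 0.10 for Acvr2b, below the median of 0.13 over the 13807 tested rows at or above a mean log2 CPM of 1. For Fst it was 0.13. It was 0.38 for Acvr1c and 0.34 for Inhbb, values exceeded by few rows: 93.4% and 91.3% of those 13807 rows had a smaller SD. For Gdf3 it was 0.52, above 97.7% of rows. That SD pools both genotypes, and the Gdf3 spread lay mostly in S273A (coefficient of variation 59.4%, against 6.43% in WT).

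The unevenness of Acvr1c was read against the adipocyte markers, in a set of 14 relations chosen after the values were seen: 7 members, each against the adipocyte and the macrophage score. A score is the mean over a list of log2 CPM after each gene is centred on its own mean across libraries. Acvr1c was higher where the adipocyte score was higher (Pearson r = 0.891, exact permutation p = 0.00278, 0.0389 adjusted over 14 relations; Spearman rho = 0.929, exact permutation p = 0.00223, adjusted 0.0312; n = 8 libraries). The adipocyte score was lowest in WT replicate 2 (-0.40) and S273A replicate 3 (-0.21), the libraries with the lowest Acvr1c. Without these 2, which lay farthest from the median score, r was 0.709 over 6 libraries. With the genotype means removed, r was 0.900. Both measures come from the same libraries and scaling.

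**Figure D5:**
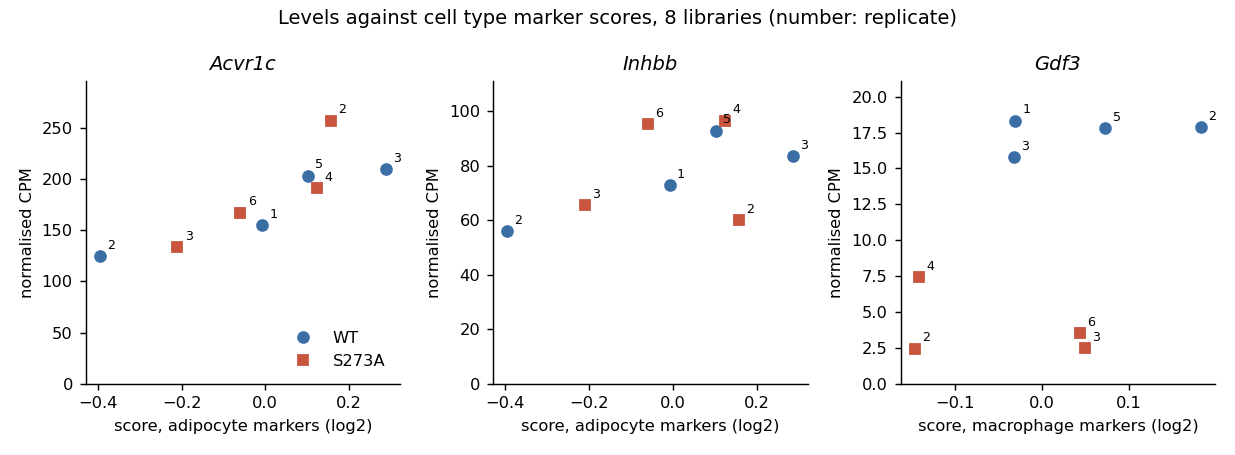
Normalised CPM (vertical axes, from 0) of Acvr1c and Inhbb against the adipocyte score and of Gdf3 against the macrophage score (horizontal axes, log2 units) in 8 libraries, WT as blue circles and S273A as red squares, with replicate numbers. Acvr1c is higher where the adipocyte score is higher (r = 0.891), and the S273A libraries lie below the WT libraries for Gdf3, with macrophage scores that overlap only in the middle of their range.

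No other relation passed after adjustment. Inhbb had r = 0.536 with the adipocyte score (exact permutation p = 0.174, rho = 0.333 with p = 0.428, n = 8), and -0.19 without the 2 farthest libraries. Acvr1c had r = -0.73 with the macrophage score (exact permutation p = 0.0428, adjusted 0.200; rho = -0.69, p = 0.0694; n = 8), and -0.28 without the 2 farthest libraries, so that relation rests on them. Inhba had r = 0.738 with the macrophage score (exact permutation p = 0.0358, adjusted 0.200; rho = 0.762, p = 0.0368; n = 8) and 0.480 without the 2 farthest, on 9 to 17 counts per library. Gdf3 was left out of these relations, because its genotypes separate; its fit with the macrophage score as a covariate is given above.

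The rows whose deviations from the genotype means were most like those of a member were found among 12391 other rows at or above that mean level that carry a standard gene symbol (12392 for Inhba). They are given as a description over 8 libraries that share scaling and cell makeup, and the top of so many rows is high in any case. For Gdf3 they were Bet1 (r = 0.977), Myadm (0.967) and S100a10 (0.966), with log2 fold changes of 0.09, 0.05 and 0.05 between the genotypes. The Gdf3 deviations lay mostly in S273A, with replicate 4 highest at 7.41 CPM, so these r values rest largely on few libraries. For Acvr1c they were Vwa8 (r = 0.997), Rab34 (0.995) and Dctn3 (0.992), and for Inhbb Calu (0.995), Purb (0.992) and Chchd10 (0.991). For Inhba, with its low counts, they were Rpl19 (0.982), Dazap2 (0.974) and Mon1a (0.969).

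Other genes of the pathway were taken from lists set out by role. The other ligands were scarce: of 9 genes, 5 were tested, 4 with positive and 1 with negative estimates, 0 called and a median of 0.03 on the log2 scale. The ones with the smallest p were Gdf1, a partner of Nodal, averaging 2.24 ± 0.267 CPM in WT and 2.06 ± 0.381 in S273A, and Mstn, myostatin, at 0.990 ± 0.870 and 1.25 ± 0.714 CPM. Inha, which encodes the alpha subunit that pairs with a beta subunit to form inhibins, was at 1.05 ± 0.402 and 1.12 ± 0.260 CPM. Lefty2, an inhibitor of Nodal, held 0 counts, and the activin subunit genes Inhbc and Inhbe held 2 and 1 in total over all 8 libraries.

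Co-receptors, binding proteins and the convertases that cut ligand precursors showed 0 called genes. Of 11 genes, 8 were tested, with 6 positive and 2 negative estimates, and a median of 0.04. The smallest p-values belonged to Wfikkn2, a binder of myostatin, averaging 2.05 ± 0.302 CPM in WT and 2.47 ± 0.460 in S273A, and to the decoy receptor gene Bambi, at 6.57 ± 0.685 and 5.85 ± 0.632 CPM. Acvr1, the type I receptor ALK2, was at 46.3 ± 1.68 and 48.1 ± 3.18 CPM (SD, n = 4 each). Tdgf1, which encodes the co-receptor Cripto, held 4 counts in total.

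The Smad2 and Smad3 arm had 11 of 12 genes tested, with 8 positive and 3 negative estimates between -0.08 and 0.09, a median of 0.01 and 0 called. Skil, a repressor of Smad signalling, averaged 109 ± 5.61 CPM in WT and 103 ± 9.30 in S273A, Smad3 at 84.9 ± 3.38 and 81.1 ± 6.32, and Smad4, the shared partner Smad, at 129 ± 5.24 and 133 ± 2.03 CPM. Genes that respond to Smad2 and Smad3 had 10 of 11 list entries tested, 3 positive and 7 negative, with a median of -0.05 and 0 called. The entry without a row, Ccn2, is another symbol of Ctgf, which was tested. Ldlrad4, an inhibitor of the pathway, averaged 38.1 ± 1.26 CPM in WT and 35.2 ± 2.38 in S273A and was the 1 gene of this list whose genotypes did not overlap (S273A below, as in 0.53% of all tested rows; edgeR unadjusted p 0.0998, adjusted 1.00). The cell cycle inhibitor gene Cdkn1a was at 77.9 ± 13.8 and 70.0 ± 9.19 CPM, and Pmepa1, another feedback inhibitor, at 202 ± 61.6 and 175 ± 28.0 CPM.

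GDF3 is also known to restrain BMP signalling, so genes that respond to BMPs were read. Of 6, 5 were tested, 3 with positive and 2 with negative estimates, a median of 0.09 and 0 called. Id1 averaged 12.3 ± 1.99 CPM in WT and 14.2 ± 1.61 in S273A, Id3 at 58.1 ± 6.43 and 63.1 ± 6.81, and Atoh8 at 9.21 ± 0.608 and 9.83 ± 1.02 CPM (SD, n = 4 each).

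Genes of fat breakdown, its control and fat cell identity, some of which ALK7 signalling is known to hold down in fat cells, were read as a list. They had 10 positive and 1 negative estimates among 11 tested, and 0 were called (0 at an unadjusted edgeR p under 0.05). Their median was 0.08, against 0.0015 over all tested rows. The beta-adrenergic receptor gene Adrb1 averaged 6.38 ± 0.984 CPM in WT and 7.57 ± 0.757 in S273A. Pnpla2, the first lipase of triglyceride breakdown, was at 807 ± 83.5 and 889 ± 83.4 CPM, and its activator gene Abhd5 at 130 ± 16.2 and 142 ± 15.0 CPM. Most of these genes are made largely by fat cells. Of the 10 adipocyte markers, 6 had positive and 4 negative estimates, with a median of 0.02 and 0 called, and the part of fat cell content in the estimates of the list was not tested. Mesothelial markers, genes of the layer that covers the depot, were at 123 to 199 CPM in sum in WT and 177 to 245 CPM in S273A, with 9 of 9 positive estimates, a median of 0.30 and 0 called. The protease inhibitor gene Slpi was the 1 mesothelial gene at an unadjusted p under 0.05 in edgeR (log2 fold change 0.43, p 0.0434, adjusted 1.00). Red blood cell markers were at 235 to 350 CPM in WT and 259 to 499 CPM in S273A, with 6 of 6 positive estimates, a median of 0.60 and 0 called. Their score was highest in S273A replicates 6 (1.18) and 4 (0.60). It was lower in S273A replicates 3 (-0.31) and 2 (-0.47) than in WT replicates 1 (-0.16), 2 (0.15) and 3 (-0.23). WT replicate 5 was lowest (-0.76). The erythrocyte membrane gene Epb42 was the 1 red blood cell marker at an unadjusted p under 0.05 (1.38, p 0.0181, adjusted 1.00 in edgeR). Endothelial markers had 8 of 8 positive estimates with a median of 0.09, progenitor and fibroblast markers 3 of 9 with a median of -0.07, and B and T cell markers 4 of 9 with a median of -0.06, again with 0 called. The part of these cells in the members' values was not tested.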

How the data were processed

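The authors deposited whole-number read counts per gene for 8 libraries, not normalised. Libraries held rRNA-depleted RNA (input 400 ng) in cDNA that does not mark strand, amplified for 12 cycles and read as pairs of 36 bases, per the labels' protocols. Per the submitters' processing notes, the tools included featureCounts 1.5.2, HISAT2 2.0.5 and Picard 2.9.2, with build mm10. The rows carry UCSC gene identifiers, such as uc009dpm.1 for Gdf3. The sources used here do not state the release of the annotation or the counting options. The length column, another quantity, holds feature bases per the file headers.

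Counts were analysed with edgeR 4.0.16 in R 4.3.3 (filterByExpr, TMM, robust glmQLFit with the installed default method, glmQLFTest, no covariate), with Benjamini-Hochberg adjustment over 15667 rows and a threshold of 0.05. DESeq2 1.42.0 and limma 3.58.1 were alternatives. The members and the 16 lists (147 of 155 entries had a row) were chosen with earlier results of these data known. Named genes are the members, the 3 rows most like Gdf3, Acvr1c, Inhba and Inhbb, and up to 3 genes with the smallest p in a described list. Listed genes without a test or next to Gdf3, and Ctgf, were named after their values were seen.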

Additional observations from a re-analysis of the deposited data

Results flagged for a closer look

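Acvr2b in WT replicate 5, at 26.6 CPM, stood apart from the other 3 WT libraries, which were at 22.5 to 22.8 CPM (the gap took 0.923 of the group's range, against a critical value of 0.829 for 4 libraries). Of 16 groups of 4 libraries looked at, 1 stood out in this way, and chance gives about 1 in 20.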

How the results depend on the processing

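No member other than Gdf3 was called under any of the alternatives run. Gdf3 kept its direction in all 21 alternatives, which the lack of overlap between its genotypes fixed in advance for the fits without 1 library. It passed in DESeq2 (-2.14) and without S273A replicate 4, and the fits without 1 library gave -2.64 to -1.96. The count of called genes, 0 in edgeR, was 1 in DESeq2, and 0 to 1 in the fits without 1 library, where the 1 was Gdf3 without S273A replicate 4. The edgeR setting for the legacy method is the installed default and changed nothing by construction. The bias-adjusted quasi-likelihood and robust limma-voom, chosen after seeing the data, both called 0 genes (235 and 220 rows at an unadjusted p under 0.05), with Gdf3 adjusted p-values of 0.389 and 0.102. The share of Gdf3 in the ligand level of WT, 31.5%, was the same with TPM by construction, and 29.3 to 32.9% without 1 WT library.

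Estimates near 0 turned sign. Acvr1c was -0.16 with the macrophage score as a covariate, and -0.078 to 0.25 without 1 library. Inhbb was -0.0038 with that covariate and -0.068 to 0.17 without 1 library. Acvr2b was -0.086 to 0.0098 without 1 library. Inhba was 0.0041 in DESeq2, 0.00073 with RLE scaling, 0.0018 with library totals, 0.0016 without the filter, 0.29 with the macrophage score, 0.024 with the adipocyte score, and -0.23 to 0.15 without 1 library. Inhba could not be fitted under the filter of 10 counts in every library. Acvr1b, Acvr2a and Fst kept their sign in all 21 alternatives, and Fst ran from -0.21 to -0.052.

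Replicate numbers 2 and 3 occur in both genotypes, and no label says that they pair animals. For that reason the numbers were not treated as pairs. Deviations of same-numbered libraries correlated at -0.099 and -0.28 over 13807 rows, but so few shared numbers cannot show whether a pairing exists. With a replicate block, Gdf3 was -2.77 (edgeR adjusted p 1.00), Acvr2b 0.050 and Inhbb -0.13, and 0 genes were called (94 rows at an unadjusted p under 0.05). The genotype estimates of that fit rest on the libraries numbered 2 and 3 alone, so it is no check on all 8 libraries. Counting depth limited Inhba most, at 9 to 17 counts per library.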
